A study of Canis lupus familiaris with 25 samples.

Results

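ARHGEF40, MICAL2 and PHLDB2 encode regulators of the actin cytoskeleton and of the cell cortex. They were taken by symbol as 3 of the 24532 genes of a count table from canine perianal gland tumors, and they were selected on measured values, namely their difference between the 2 tumor types described here. Their levels in the tumor types are therefore given as a description, without a test. Libraries were made by QuantSeq 3′, which reads the 3′ end of each polyadenylated transcript, from formalin-fixed, paraffin-embedded (FFPE) tissue of privately owned dogs. The 10 hepatoid gland adenomas (HGA), benign tumors of the modified sebaceous glands around the anus, came from 10 dogs aged 8 to 14 years. Of these dogs, 6 were intact and 4 neutered, and those of HGA 4, 6, 7, 9 and 10 were male and the others female. The 11 primary apocrine gland anal sac adenocarcinomas (AGASAC), malignant tumors of the glands in the wall of the anal sac, came from 11 dogs aged 8 to 12.5 years, 5 female and 6 male, of which 9 were neutered. The 4 metastases were sublumbal lymph node metastases of the dogs of AGASAC 1 to 4, aged 8 to 10 years. No treatment was given in the labels, each tumor was sampled once, and tissue next to the tumors had been removed before extraction, so each library is a bulk sample of tumor with its stroma. In such samples, fewer cells of a type and less RNA per cell cannot be told apart.

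ARHGEF40, also known as Solo, belongs to the guanine nucleotide exchange factors, which load small GTPases with GTP, and it acts on RhoA and binds the keratin 8 and keratin 18 filaments of simple epithelia. MICAL2 is a flavin monooxygenase that oxidizes methionines of actin and so takes filaments apart, and it raises the activity of the transcription factor SRF through its cofactor MRTF-A. PHLDB2, also known as LL5β, binds phosphoinositides of the plasma membrane and gathers CLASP and ELKS proteins at the cortex, where they hold the ends of microtubules close to adhesions.

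For MICAL2 and PHLDB2, the study designed hybridization probes as an addition to its second platform. Their target sequences are shown because they are the stretches by which the study identified these canine transcripts, 5′ to 3′ and in lower case, with no part marked. The MICAL2 target covers bases 1284 to 1383 of its transcript, and the PHLDB2 target bases 2324 to 2423, 100 bases each, with a GC content of 51.0% and 49.0%. The QuantSeq 3′ counts below come from the 3′ ends of the transcripts and not from the targets.
MICAL2: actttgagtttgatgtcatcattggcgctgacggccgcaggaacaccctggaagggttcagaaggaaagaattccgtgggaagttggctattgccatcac
PHLDB2: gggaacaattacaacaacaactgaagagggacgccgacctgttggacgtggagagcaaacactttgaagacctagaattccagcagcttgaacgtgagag

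Counts on genes ranged from 1562347 to 6389555 in HGA, from 2581453 to 4218340 in the primary AGASAC and from 2857541 to 3289546 in the metastases. At these depths, 3 counts stood for 0.543 to 1.84 CPM, counts scaled to a common library size with TMM factors, in HGA. DV200, the share of RNA fragments over 200 nucleotides, was 70.5 to 92.7% in HGA, 70.2 to 84.4% in the primary tumors and 71.8 to 82.9% in the metastases. The summed level of 5 markers of simple epithelium was 409 to 731 CPM in HGA and 3556 to 6221 CPM in the primary tumors, and 5 of 5 were called lower in HGA. The summed level of 5 markers of stratified epithelium was 4558 to 15226 CPM in HGA and 0 to 33.3 CPM in the primary tumors, where KRT79 was at 0 in every library. Both marker sums separated the 2 tumor types without overlap.

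All 3 genes were low in every HGA and high in every AGASAC sample, metastases included. ARHGEF40, the exchange factor for RhoA, lay between 2.16 and 11.9 CPM in HGA, with a median of 6.83. In the 11 primary AGASAC, numbered as in the labels, it measured 261, 264, 247, 240, 329, 216, 278, 374, 245, 381 and 146 CPM. In the metastases of dogs 1 to 4 it measured 247, 250, 307 and 186 CPM. The groups did not overlap, and AGASAC 11, the lowest AGASAC sample, was still 12.2 times above HGA 1, the highest HGA. The means were 7.63 ± 2.94 CPM in HGA (SD, n = 10), 271 ± 68.7 CPM in the primary tumors (SD, n = 11) and 247 ± 49.3 CPM in the metastases (SD, n = 4). The mean of the primary tumors was 35.5 times that of HGA, and the log2FC of HGA relative to AGASAC was −5.09 with a standard error of 0.25.

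MICAL2, the actin oxidase, was close to the detection limit in HGA, where it had between 0 and 22 counts per library. In HGA 1 to 10 it measured 2.71, 0.904, 2.28, 5.53, 1.62, 3.06, 6.68, 2.46, 5.09 and 0 CPM. In the primary AGASAC 1 to 11 it measured 195, 75.8, 237, 328, 296, 266, 234, 462, 200, 245 and 436 CPM. AGASAC 2 was the lowest of the 15 AGASAC samples and still 11.4 times above HGA 7, the highest HGA, and AGASAC 8 was the highest. The metastases had 158, 115, 277 and 375 CPM, all within the range of the primary tumors. The means were 3.03 ± 2.12 CPM in HGA (SD, n = 10), 271 ± 109 CPM in the primary tumors (SD, n = 11) and 231 ± 118 CPM in the metastases (SD, n = 4). The ratio of the means of primary AGASAC and HGA was 89.2, with a log2FC of −6.42 and a standard error of 0.43. HGA 10 had 0 counts, which allows up to 1.29 CPM at its depth.

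PHLDB2, the cortical anchor of microtubules, was detected in each HGA with 8 to 75 counts. Its levels in HGA 1 to 10 were 9.77, 3.62, 8.56, 17.2, 4.85, 6.33, 22.8, 10.7, 9.33 and 4.73 CPM. The primary AGASAC 1 to 11 had 283, 634, 568, 631, 205, 637, 137, 650, 295, 638 and 407 CPM. In 6 of these tumors it stood close together at 568 to 650 CPM, and the other 5 lay lower, down to 137 CPM in AGASAC 7. The metastases had 253, 198, 626 and 1236 CPM, and metastasis 4 was the highest of all 25 samples. The means were 9.78 ± 6.02 CPM in HGA (SD, n = 10), 462 ± 200 CPM in the primary tumors (SD, n = 11) and 578 ± 478 CPM in the metastases (SD, n = 4). AGASAC 7 was 6.00 times above HGA 7, the ratio of the means of primary AGASAC and HGA was 47.2, and the log2FC was −5.52 with a standard error of 0.38.

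**Figure D1:**
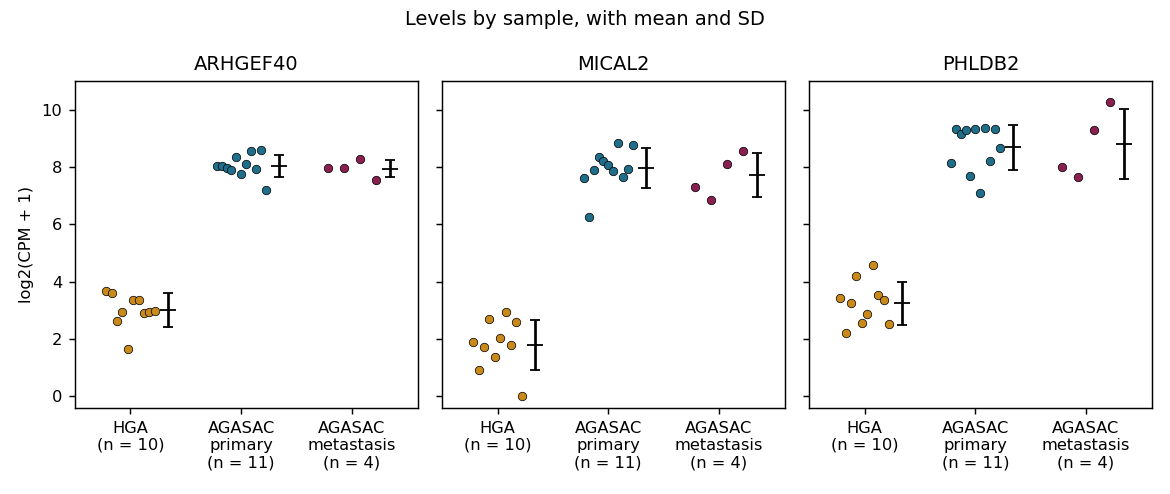
Levels of ARHGEF40, MICAL2 and PHLDB2 as log2(CPM + 1), with 1 point per sample for HGA (n = 10), primary AGASAC (n = 11) and AGASAC metastases (n = 4), and the mean with its SD beside the points. In each gene the HGA points lie below all AGASAC points, and the metastases lie among or above the primary tumors.

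Over the table, 12.5% of the 12070 tested genes were called lower in HGA, and nothing is read from this share for the 3 genes, which were chosen for the difference. All 3 passed the filter on low counts through the AGASAC samples, in which they are high. For 4.76% of the tested genes, the 2 tumor types did not overlap and HGA was lower. The share without overlap and with HGA higher was not computed, so genes described that way below have no share beside them. As a description, the difference was present in each of the extraction batches 5, 6 and 8. Batch 7 also held both tumor types, with only HGA 3 and AGASAC 8, and was not fitted. With 3 HGA and 3 primary AGASAC in batch 5, the log2FC was −5.23 for ARHGEF40, −5.67 for MICAL2 and −4.73 for PHLDB2. With 3 HGA and 2 primary AGASAC in batch 6, it was −4.67, −7.23 and −6.60 in the same order. With 2 HGA and 3 primary AGASAC in batch 8, it was −4.89, −5.26 and −4.66. Among the 12 libraries that share the sequencing file naming of 9 of the 10 HGA, with 3 primary AGASAC, it was −5.00, −5.60 and −5.55.

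Within the primary AGASAC, ARHGEF40 was the steadiest of the genes and PHLDB2 the most variable. The SD on the log2 scale was 0.385 for ARHGEF40, 0.693 for MICAL2 and 0.790 for PHLDB2, and the median SD of the 1830 genes with a mean of at least 100 CPM was 0.424. Of those genes, 43.4% had a lower SD than ARHGEF40, 78.3% than MICAL2 and 82.5% than PHLDB2. The 4 tumors with a sampled metastasis had ARHGEF40 at 240 to 264 CPM, inside the 146 to 381 CPM of the 7 tumors without one. MICAL2 ranged from 75.8 to 328 CPM with a sampled metastasis and from 200 to 462 CPM without, and PHLDB2 from 283 to 634 CPM and from 137 to 650 CPM, so the ranges overlapped for each gene. All 7 tumors without a sampled metastasis also share a sequencing file naming that the other 4 are not known to have, and the 2 features cannot be told apart. The ranges of the 5 female and the 6 male dogs overlapped too, for example at 205 to 650 and 137 to 638 CPM for PHLDB2. In HGA, MICAL2 was 1.62 to 6.68 CPM in the 6 intact and 0 to 2.71 CPM in the 4 neutered dogs, values of a few counts that overlapped. The intact males, HGA 4, 6, 7 and 9, had 5.53, 3.06, 6.68 and 5.09 CPM, above every other HGA. This was seen in the values afterwards and was not tested.

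Metastases were set against the 4 matched primary tumors, a comparison that was not used to choose the genes. It found 0 of 12629 genes called (0%) by the quasi-likelihood test of edgeR, adjusted after Benjamini-Yekutieli. There were 145 genes (1.15%) with an unadjusted p below 0.05. That test left out the pairing by dog, so its intervals include the spread between dogs. With the dog as a block, 1 gene was called, ACTA1, an actin of skeletal muscle, and 491 genes (3.89%) had an unadjusted p below 0.05. DESeq2 called 5 genes, ACTA1, MYLPF, MYL1, CKM and SPOCK2, most of which are genes of skeletal muscle. The genes called by the block and by DESeq2 are named because they were called, after their values were seen. The summed level of 7 skeletal muscle markers was 33.5, 617, 25.2 and 507 CPM in the matched primary tumors 1 to 4 and 2.24 to 7.79 CPM in the metastases. Over all primary tumors, the unmatched included, it was 9.23 to 1074 CPM.

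ARHGEF40 differed little between a primary tumor and its metastasis. The ratio of metastasis to primary tumor was 0.947, 0.944, 1.24 and 0.776 in dogs 1 to 4, above 1 in 1 of 4 dogs. The log2FC of metastasis relative to primary tumor was −0.035 with a standard error of 0.20, and its 95% interval reached from −0.48 to 0.41, that is from 0.719-fold to 1.33-fold (adjusted p = 1, edgeR). The log2FC of −5.09 between HGA and AGASAC, for which the gene was chosen, lies outside this interval, and nothing is read from that. Blocking by dog gave ARHGEF40 a log2FC of −0.055 with a standard error of 0.16.

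MICAL2 had ratios of 0.807, 1.51, 1.17 and 1.14, above 1 in 3 of 4 dogs. Its log2FC was 0.14 with a standard error of 0.49, and the 95% interval was −0.97 to 1.24, or 0.511-fold to 2.37-fold (adjusted p = 1, edgeR). The order of the dogs was the same in both tissues, with dog 2 lowest and dog 4 highest. Blocking by dog gave MICAL2 a log2FC of 0.17 with a standard error of 0.18.

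PHLDB2 had the widest ratios, with 0.894, 0.312, 1.102 and 1.96 in dogs 1 to 4, above 1 in 2 of 4 dogs. Its log2FC was 0.13 with a standard error of 0.57, and the 95% interval was −1.16 to 1.42, or 0.446-fold to 2.67-fold (adjusted p = 1, edgeR). With the dog as a block the log2FC was −0.17, with a standard error of 0.39 and an adjusted p of 1 by edgeR. Dog 2, with the lowest ratio, also had the largest fibroblast and smooth muscle marker sums in its metastasis, and the endothelial sum, at 162 CPM, was below the 186 CPM of metastasis 4. The 7 fibroblast markers summed to 12955 CPM in metastasis 2 and 738 to 3020 CPM in the other metastases, and the 7 markers of smooth muscle and myoepithelium to 736 CPM against 61.3 to 202 CPM. The 5 markers of simple epithelium, at 3458 CPM, were lowest there. In the primary tumor of dog 2 the fibroblast sum was 6873 CPM, the smooth muscle sum 257 CPM and the simple epithelium sum 3992 CPM. ARHGEF40 and MICAL2 had ratios of 0.944 and 1.51 in this dog. The part of these markers in the ratio of PHLDB2 was not tested.

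**Figure D2:**
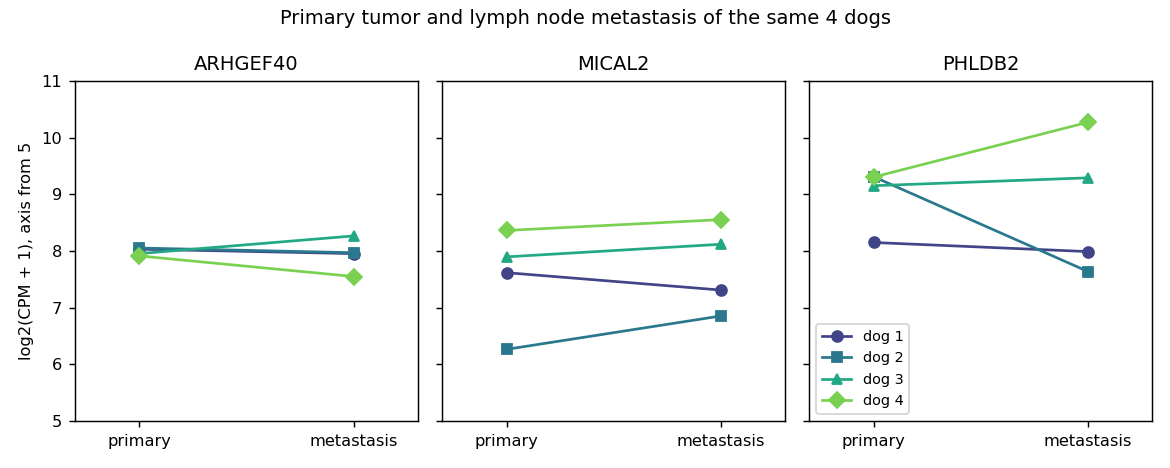
Levels of the 3 genes as log2(CPM + 1), on an axis that starts at 5, in the primary tumor and the metastasis of dogs 1 to 4, with a line for each dog. The lines of ARHGEF40 are nearly level, those of MICAL2 keep their order, and those of PHLDB2 spread from 0.312 times in dog 2 to 1.96 times in dog 4.

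No correlation between the levels of the 3 genes was found among the primary AGASAC, though 11 tumors are too few to exclude one. Over the 11 tumors, Pearson's r of log2(CPM + 1) was −0.0829 for ARHGEF40 and MICAL2 (permutation p = 0.797; Spearman's coefficient −0.0818, permutation p = 0.816). For ARHGEF40 and PHLDB2, r was 0.000844 (permutation p = 0.998), and Spearman's coefficient was 0.127 (permutation p = 0.715). For MICAL2 and PHLDB2, r was −0.000353 (permutation p = 0.999), and Spearman's coefficient was 0.336 (permutation p = 0.314). All tests were two-sided, and the smallest of the Benjamini-Hochberg adjusted values over the 3 pairs was 0.999 for r and 0.816 for Spearman's coefficient. Without the 2 tumors farthest from the median of the first gene, r was 0.364, −0.198 and 0.244 in the same order. In the 7 tumors that share a sequencing file naming, r was −0.160 (exact permutation p = 0.740), 0.0567 (exact permutation p = 0.900) and 0.380 (exact permutation p = 0.390). No extraction batch held more than 3 primary tumors, so no value is given within batches.

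Within HGA, the low levels of MICAL2 and PHLDB2 were ordered alike. This comparison was added after the values had been seen. HGA 7 was highest and HGA 4 was second in both genes, and both came from intact males. The part of sex and neutering in the correlation was not tested. Over the 10 HGA, r was 0.826 (permutation p = 0.00277) and Spearman's coefficient was 0.842 (permutation p = 0.00349), and the values adjusted by Benjamini-Hochberg over the 6 pairs of both tumor types were 0.0166 and 0.0209. Without HGA 7 and HGA 10, the tumors farthest from the median of MICAL2, r was 0.832, and in the 9 HGA that share a sequencing file naming it was 0.885. These levels rest on at most 22 counts of MICAL2 and 75 counts of PHLDB2 in a library. ARHGEF40 showed r of 0.127 with MICAL2 (permutation p = 0.712; Spearman's coefficient 0.152, permutation p = 0.681) and 0.183 with PHLDB2 (permutation p = 0.618; Spearman's coefficient −0.00606, permutation p = 1). Whether the correlation of MICAL2 and PHLDB2 differs between HGA and AGASAC was not tested. The pair was not alone in this, as some other genes given below had a similar r with PHLDB2 or MICAL2 in HGA.

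Some marker sums of stroma were high in HGA 7 or HGA 4, but not in every HGA with a high level of MICAL2. The 7 markers of smooth muscle and myoepithelium summed to 299 CPM in HGA 4 and 283 CPM in HGA 7, against 95.5 to 248 CPM in the other 8. The 6 endothelial markers summed to 571 CPM in HGA 7 and to 196 to 291 CPM in the other 9, among which HGA 4 had 275 CPM. The 7 fibroblast markers were highest in HGA 3 at 5774 CPM, with 4844 CPM in HGA 7 and 2548 CPM in HGA 4. Their part in the correlation was not tested. Over both tumor types, the smooth muscle and myoepithelium markers reached 95.5 to 299 CPM in HGA and 64.2 to 631 CPM in the primary AGASAC, and 1 of 6 tested markers was called lower in HGA.

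**Figure D3:**
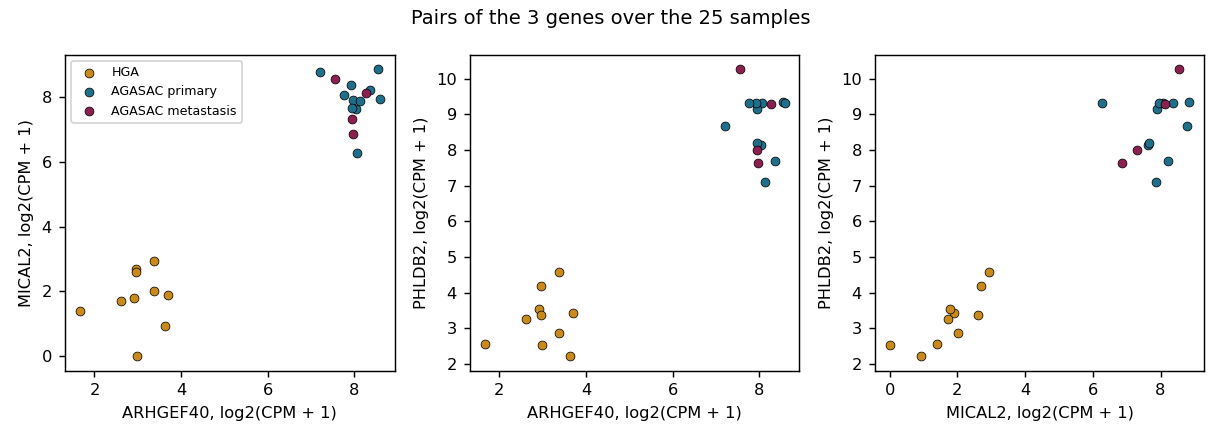
Each pair of the 3 genes as log2(CPM + 1), with 1 point per sample and colors for HGA, primary AGASAC and metastases. HGA and AGASAC form separate clouds in every panel, no slope is visible among the primary tumors, and MICAL2 and PHLDB2 rise together within HGA (r = 0.826, n = 10).

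Genes of the same pathways were called in both directions in most lists. Both keratins that bind ARHGEF40 were called lower in HGA. Of the partners of PHLDB2 only 2 were called, both higher, a share near that of all tested genes. Lists of relatives and partners held 136 genes without the 3 themselves, of which 131 were in the table and 111 passed the filter on low counts. By edgeR's quasi-likelihood test over all genes, 20 (18.0%) were called higher and 23 (20.7%) lower in HGA, and 12.6% and 12.5% of all tested genes were called in these directions. Genes that passed the filter only through the group in which they are high are part of these counts. For such genes, among them KRT8, MICALCL, ARHGEF16 and RHPN2, the p-values below are a description and not support for a difference. In the metastases, 0 of 112 tested list genes were called.

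Among the relatives of MICAL2 and the reductases that reverse its reaction, 2 of 7 tested genes were called higher and 2 lower in HGA. The median log2FC was 0.50, beside −0.032 over all tested genes. MICAL1, a paralog with the same enzyme activity, did not pass the filter and averaged 2.87 ± 2.89 CPM in HGA (SD, n = 10) and 2.63 ± 1.36 CPM in AGASAC (SD, n = 11). MICAL3, the remaining paralog, was not called, with 35.3 ± 16.2 and 23.9 ± 11.2 CPM and a log2FC of 0.59 with a standard error of 0.27. MICALL2, a MICAL-like protein of cell junctions without the enzyme domain, was higher in HGA with a log2FC of 1.55 and a standard error of 0.37 (edgeR adjusted p = 0.0126). That call was lost with library size alone as scaling, at a log2FC of 1.24 (edgeR adjusted p = 0.0597).

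MICALCL, a short relative of the carboxyl end of the MICAL proteins, showed the lowest log2FC of the list, −7.52 with a standard error of 0.60 (edgeR adjusted p = 5.73e-09). It had 0 to 6 counts in HGA, 20.3 to 222 CPM with a median of 90.8 in the primary AGASAC, and 17.2 to 162 CPM in the metastases. In both tissues AGASAC 2 and its metastasis were lowest. In the human genome MICALCL lies directly behind MICAL2 and has been merged with it in later annotations, and the RefSeq table of the dog assembly UU_Cfam_GSD_1.0 lists MICAL2 and no gene named MICALCL. Whether the reads of both symbols stem from 1 gene was not tested, so MICALCL, which is 1 of the 2 lower genes of this list and of the 23 lower genes of all lists, may not be separate from MICAL2.

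Of the 3 reductases, 1 was called higher, 1 lower and 1 was not called. MSRB1, which reduces oxidized actin in the cytosol, was higher in HGA at 26.4 ± 23.1 against 4.84 ± 3.48 CPM (log2FC 2.47, standard error 0.45, edgeR adjusted p = 0.000951). Within the naming series of most HGA, its log2FC was 1.51 and the call was lost (edgeR adjusted p = 0.938). MSRB3, found in the endoplasmic reticulum and mitochondria, was lower at 157 ± 50.4 against 381 ± 183 CPM (log2FC −1.25, standard error 0.27, edgeR adjusted p = 0.00436). With the extraction batch as a covariate, its log2FC was −1.09 and the call was lost (edgeR adjusted p = 0.0626). MSRB2, a reductase of mitochondria, was not called, with a log2FC of 0.34 and a standard error of 0.25, and it is named here to complete the family.

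Around PHLDB2, 2 of 16 tested genes of its family and of the cortical microtubule complex were called, both higher in HGA. Over all tested genes 12.6% were called higher, so nothing is read from these 2 calls. The median log2FC of the list was 0.31. KANK4, of a family of adaptor proteins at adhesions, averaged 30.4 ± 25.3 CPM in HGA and 1.92 ± 2.26 CPM in AGASAC (log2FC 3.95, standard error 0.64, edgeR adjusted p = 0.000206). KIF21A, a kinesin that KANK proteins bring to the cortex, averaged 106 ± 64.3 and 9.72 ± 8.56 CPM (log2FC 3.48, standard error 0.45, edgeR adjusted p = 9.64e-06). The paralogs of PHLDB2 were not called. PHLDB1 had 33.9 ± 14.8 and 20.1 ± 11.8 CPM, with a log2FC of 0.78 and a standard error of 0.36. PHLDB3 had 2.94 ± 2.27 and 6.35 ± 2.38 CPM, with a log2FC of −1.05 and a standard error of 0.46.

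Of the other listed guanine nucleotide exchange factors, 6 of 23 tested genes were called higher and 5 lower in HGA, and the median log2FC was −0.28. ARHGEF4, an exchange factor known to act on Rac and Cdc42, rose furthest, from 2.76 ± 2.93 CPM in AGASAC to 92.0 ± 32.8 CPM in HGA, without overlap (log2FC 5.04, standard error 0.49, edgeR adjusted p = 1.19e-07). ARHGEF33 was 40.3 ± 19.97 CPM in HGA and 2.57 ± 1.84 CPM in AGASAC (log2FC 3.96, standard error 0.39, edgeR adjusted p = 1.73e-07). ARHGEF16, known to act on RhoG, was lowest relative to AGASAC, with at most 4 counts in any HGA and 8.80 ± 3.57 CPM in AGASAC (log2FC −5.06, standard error 0.53, edgeR adjusted p = 3.83e-07). ARHGEF3, which like ARHGEF40 acts on RhoA, was 4.84 ± 3.104 CPM in HGA and 55.6 ± 19.7 CPM in AGASAC, again without overlap (log2FC −3.47, standard error 0.37, edgeR adjusted p = 6.48e-07). PLEKHG4, the closest paralog of ARHGEF40 in the list, did not pass the filter and averaged 3.13 ± 2.75 and 1.24 ± 1.29 CPM.

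Both keratins to which ARHGEF40 binds were called lower in HGA. KRT8 did not exceed 1 count in an HGA library and averaged 465 ± 160 CPM in the primary AGASAC (SD, n = 11) and 515 CPM in the metastases. It passed the filter only through AGASAC, so nothing is read from its p-value between HGA and primary AGASAC (edgeR adjusted p = 1.09e-15). KRT18 averaged 4.33 ± 10.4 CPM in HGA and 580 ± 201 CPM in AGASAC, with a log2FC of −6.88 and a standard error of 0.85 (edgeR adjusted p = 5.16e-06). HGA 1 alone held 184 counts of KRT18, or 33.3 CPM against 0 to 7.01 CPM in the other HGA, and the log2FC without it was −9.01. Both keratins also belong to the markers of simple epithelium given above, and their level moved with the tumor type together with that of ARHGEF40. Whether the level of ARHGEF40 differs beyond the difference in epithelial type was not tested.

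Downstream of RhoA, 2 of 18 tested effectors and actomyosin genes were called higher and 5 lower in HGA, and the median log2FC was −0.37. ROCK2, the kinase that RhoA activates, was higher in HGA without overlap at 130 ± 59.0 against 36.5 ± 14.7 CPM (log2FC 1.85, standard error 0.26, edgeR adjusted p = 3.64e-05). MYL9, a myosin light chain of smooth muscle and stroma, was also higher (log2FC 1.58, standard error 0.30, edgeR adjusted p = 0.00115). MYH10, the heavy chain of nonmuscle myosin IIB, was lower without overlap at 5.11 ± 2.82 against 46.7 ± 31.5 CPM (log2FC −3.13, standard error 0.40, edgeR adjusted p = 7.4e-06). RHPN2 was lower at 0.703 ± 0.909 against 17.3 ± 12.7 CPM (log2FC −4.31, standard error 0.60, edgeR adjusted p = 2.73e-05).

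Of SRF, its cofactors and their target genes, 3 of 20 tested genes were called higher and 4 lower in HGA, with a median log2FC of −0.35. MKL1, the symbol here for the cofactor MRTF-A, was higher without overlap at 52.6 ± 21.7 CPM in HGA against 9.70 ± 5.37 CPM in AGASAC (log2FC 2.47, standard error 0.31, edgeR adjusted p = 7.07e-06). CNN2, an actin-binding calponin, was higher without overlap at 259 ± 76.9 against 18.1 ± 8.65 CPM (log2FC 3.86, standard error 0.28, edgeR adjusted p = 1.61e-09). ZYX, which encodes zyxin of adhesions and stress fibers, was lower without overlap at 33.4 ± 11.4 against 144 ± 38.1 CPM (log2FC −2.08, standard error 0.21, edgeR adjusted p = 1.84e-07). TPM2, a tropomyosin abundant in muscle, was lower with overlap (log2FC −2.22, standard error 0.44, edgeR adjusted p = 0.00196). Within the naming series of most HGA its log2FC was −1.67 and the call was lost (edgeR adjusted p = 0.367), and 3 of 3 tested skeletal muscle markers were called lower in HGA as well.

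Genes that sever, cap or bundle actin or link it to the membrane were called in both directions, with 6 of 26 higher and 5 lower in HGA and a median log2FC of 0.17. CAPG, which caps filament ends, was 562 ± 205 CPM in HGA and 108 ± 64.9 CPM in AGASAC (log2FC 2.41, standard error 0.34, edgeR adjusted p = 3.98e-05). PLS3, a bundling protein, was higher as well (log2FC 1.82, standard error 0.33, edgeR adjusted p = 0.000861). AVIL, a relative of villin, was lower without overlap at 1.46 ± 1.203 against 22.3 ± 19.4 CPM (log2FC −3.82, standard error 0.55, edgeR adjusted p = 4.65e-05), and within the naming series of most HGA the log2FC was −3.21 and the call was lost (edgeR adjusted p = 0.056). PFN2, a profilin that feeds actin monomers to growing ends, was lower (log2FC −2.10, standard error 0.52, edgeR adjusted p = 0.0191), and that call was lost with the extraction batch as a covariate, at a similar log2FC of −2.12 (edgeR adjusted p = 0.0899).

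**Figure D4:**
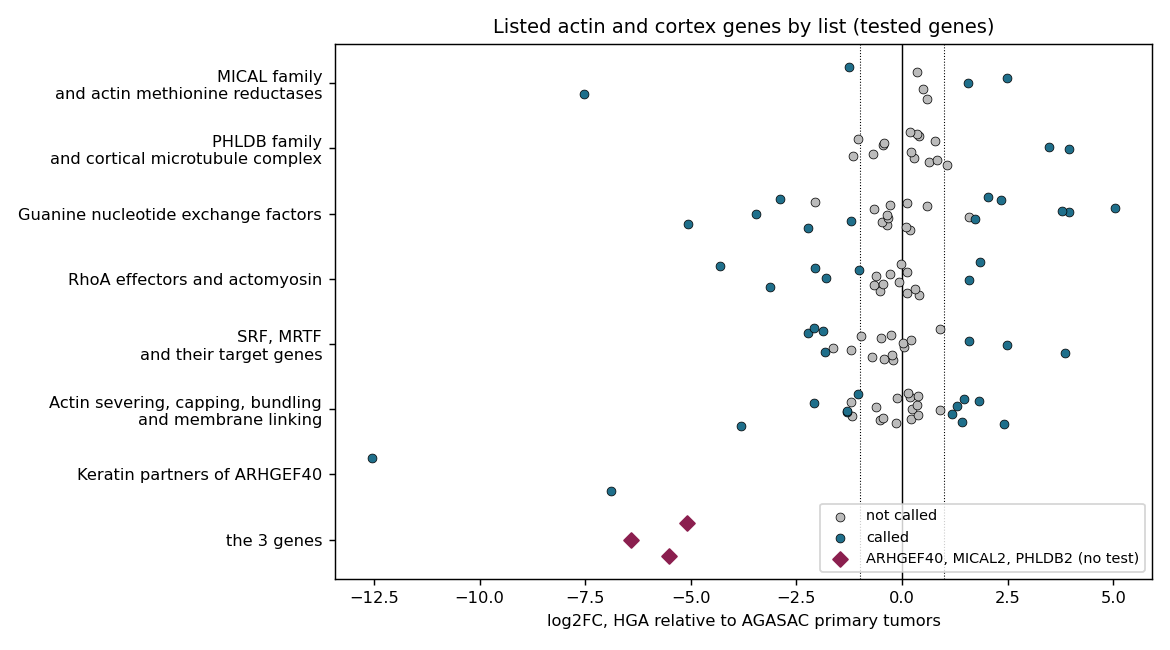
Log2FC of HGA relative to primary AGASAC for the tested genes of 7 lists of relatives and partners, with filled points for called genes, gray points for genes not called and diamonds for ARHGEF40, MICAL2 and PHLDB2. Dotted lines mark a log2FC of −1 and 1. Called genes lie on both sides of 0 in 5 of the lists, and the 2 keratins lie only to the left. The fitted value of KRT8, with at most 1 count in any HGA, depends on the prior count of the fit.

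The genes whose levels over all 25 samples were most like those of the 3 genes are given by Pearson's r of log2(CPM + 1). For ARHGEF40, they were SPDEF, a transcription factor of secretory epithelium (Pearson's r 0.983), GCGR, the glucagon receptor (0.983), KRT8 (0.982), the fucosyltransferase gene FUT2 (0.981) and TMEM125 (0.980). For MICAL2, they were the transcription factor gene ZFHX3 (0.974), FUT2 (0.969), PIP, a secreted protein of apocrine glands (0.968), KRT19 (0.967) and KRT8 (0.967). For PHLDB2, they were PPP1R1A, an inhibitor of protein phosphatase 1 (0.971), MICAL2 (0.966), HPX, the heme-binding hemopexin (0.965), the sulfotransferase gene GAL3ST2 (0.963) and FUT2 (0.962). All 25 points share the split into HGA and AGASAC, so these r describe that split above all. Within the 11 primary AGASAC, the r of the same pairs ran from −0.230 for MICAL2 and PIP to 0.559 for ARHGEF40 and GCGR. Within the 10 HGA they ran from −0.347 for MICAL2 and KRT8 to 0.826 for PHLDB2 and MICAL2, without a value for GCGR. There, PHLDB2 also had an r of 0.818 with PPP1R1A and 0.727 with HPX, and MICAL2 an r of 0.718 with ZFHX3.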

How the data were processed

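Per the labels and methods, the authors trimmed the reads with Cutadapt, aligned them with STAR to CanFam3.1 and counted them on genes with featureCounts, extending gene ends at the 3′ side and splitting multi-mapped reads evenly. Tool versions were not given in the sources used here. The authors deposited raw counts per gene and sample. The same deposited table also has the authors' normalized signal (counts over size factors, and its mean) and the authors' comparison as a log2 fold change, its standard error (a score here) and p-values with adjusted p-values, which were not used. Coordinates were left out because the gene table used here is of the assembly UU_Cfam_GSD_1.0.

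The tests ran on the counts with edgeR 4.0.16 in R 4.3.3 (filterByExpr with minimum count 10 and minimum total 15, TMM, quasi-likelihood test, p-values adjusted after Benjamini-Yekutieli over the whole table). A call needed an adjusted p no higher than 0.05 and a log2FC of 1 or more in size. DESeq2 1.42.0 was an alternative. Values of samples and means are CPM with TMM factors over 25 samples, and correlations use a pseudocount of 1 and up to 100000 permutations. Floors of 3 counts cover counting error only, and the intervals and p-values of edgeR rest on the spread between samples of different dogs. The main test of metastases against primary tumors left out the pairing by dog, which only the dog block used. The lowest chi-square per degree of freedom between libraries of a group was 12.2, so 0 were duplicates. Extraction batch and sequencing file names came from the supplementary sample tables. Metastasis and primary tumor pair by dog, and their deviations from the group means correlated at 0.428 to 0.730 across genes. The steps were tested on simulated data.

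Genes named are the 3 genes, the 2 highest and 2 lowest called genes of each list, close paralogs, the keratins, and the 5 most similar genes with a symbol. The 3 genes and the lists were chosen with earlier results of these data known.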

Additional observations from a re-analysis of the deposited data

Results flagged for a closer look

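For named genes of the lists, 1 sample stood far from the rest of its group in 12 of 64 groups examined, where the nominal rate of the rule by chance is about 1 in 20. None of the 12 concerned ARHGEF40, MICAL2 or PHLDB2. In HGA, ROCK2 was 266 CPM in HGA 7 against 75.2 to 173 CPM in the others, and ZYX was 60.6 CPM in HGA 2 against 21.9 to 40.7 CPM. MKL1 was 109 CPM in HGA 10 against 31.4 to 61.5 CPM, and MICAL3 was 74.4 CPM in the same tumor against 19.7 to 45.3 CPM. MICAL1 was 10.4 CPM in HGA 2 against 0 to 3.42 CPM, PFN2 was 17.3 CPM in HGA 8 against 0 to 9.13 CPM, and KRT18 was 33.3 CPM in HGA 1 against 0 to 7.01 CPM. KRT8 was 0.452 CPM, a single count, in HGA 2 and 0 in the others.

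Among the metastases, MYL9 was 33.7 CPM in metastasis 2 against 5.43 to 9.01 CPM, and TPM2 was 47.0 CPM in the same sample against 4.54 to 7.35 CPM. The markers of smooth muscle and myoepithelium were highest there too, at 736 CPM, and their part in both values was not tested. CAPG was 220.0 CPM in metastasis 1 against 31.3 to 57.6 CPM, and PLEKHG4 was 3.51 CPM in metastasis 4 against 0.531 to 0.649 CPM.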

How the results depend on the processing

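ARHGEF40, MICAL2 and PHLDB2 kept the direction of their HGA versus AGASAC difference under every alternative run that held them. The run with at least 10 counts in every sample held none of the 3. They were chosen for this difference, so nothing is read from its direction. Leaving out 1 tumor gave log2FC of −5.18 to −4.99, −6.63 to −6.27 and −5.75 to −5.43 in this order. Within extraction batches, MICAL2 gave −7.23 (batch 6) and −5.26 (batch 8), PHLDB2 gave −4.73 (batch 5), −6.60 (batch 6) and −4.66 (batch 8), and MICAL2 was −5.60 within the naming series of most HGA. Of the list genes, 20 were called higher and 23 lower, against 10 and 12 with at least 10 counts in every sample (fewer genes tested), 0 and 3 within batch 5, 4 and 6 within batch 6 and 4 and 4 within batch 8 (fewer samples), and 19 to 21 and 21 to 25 when 1 tumor was left out. Calls were lost with the extraction batch as a covariate (MSRB3, PFN2), library size alone (MICALL2), the number block (MICALL2, PFN2) and within the naming series of most HGA (MSRB1, MICALL2, TPM2, AVIL, PFN2), all in the same direction, and MICAL3, never called, turned to −0.083 within batch 5. The cause was not tested.

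With a replicate block by label number, which HGA and AGASAC only share as a number, log2FC were −5.21, −6.42 and −5.58, and 16 list genes were called higher and 20 lower, with 7 exchange factors called instead of 11. Between metastases and primary tumors, the dog block (a true pairing) gave −0.055 for ARHGEF40, 0.17 for MICAL2 and −0.17 for PHLDB2, the last with the direction turned, and called 0 list genes. Leaving out 1 sample gave −0.15 to 0.075, −0.21 to 0.46 and −0.57 to 0.41. All 3 turned without metastasis 4, at 0.075, −0.21 and −0.57, MICAL2 also without AGASAC 2 (−0.14) and PHLDB2 without AGASAC 1 (−0.085). DESeq2 called 5 genes and the block 1 over all genes.

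Among the primary tumors, r changed sign for ARHGEF40 and MICAL2 with library size alone (0.00432) and without 2 tumors (0.364), for ARHGEF40 and PHLDB2 with RLE factors (−0.0282) and without 2 tumors (−0.198), and for MICAL2 and PHLDB2 with library size alone (0.0288), in the naming series of 7 tumors (0.380) and without 2 tumors (0.244). Depth limits MICAL2 in HGA, where 3 counts stand for up to 1.84 CPM.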
